A study of Homo sapiens with 18 samples.

Results

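The genes described here are 34 human genes for inflammatory chemokines, cytokines and other targets of the transcription factor NF-kB. They were chosen by name for what they are known to do, but with earlier results of these data known. All 34 were found among the 61487 gene identifiers of the count table, and all 34 passed the filter on low counts that left 18544 genes to test. Expression was measured in MSC-hTERT, a human mesenchymal stem cell line immortalized with telomerase. Its cells carried pMSCV (the name of a retroviral vector, read here as the control), SRF, or one of 4 fusions of SRF with another gene, named SRF-RELA, SRF-PDGFRB, SRF-ICA1L and SRF-FOXO1. These 6 groups had 3 libraries each, with the numbers 1 to 3. All groups shared a medium with 10% serum and FGF-2 at 1 ng/ml, so no group was free of growth factors. The labels do not say whether the 3 libraries of a group came from separate cultures or separate clones, so p-values measure only the spread between these libraries, which may be technical.

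NF-kB is a family of dimeric transcription factors held in the cytoplasm by inhibitor proteins. Signals such as tumour necrosis factor and interleukin-1 lead to loss of the inhibitors, and the dimers then enter the nucleus and switch on genes of inflammation, many of whose products feed back on the pathway. RELA encodes p65, the subunit with the strongest activation domain, while SRF (serum response factor) drives immediate early and cytoskeletal genes. Mesenchymal stromal cells are known to secrete CXCL8, CCL2 and IL6 in culture, and to raise them on inflammatory stimulation.

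Of the 34 genes, 27 had at least 1 promoter window in RefSeq (GRCh38.p14), 300 bases from 250 before to 50 after the transcription start, with 38 windows in all. CSF3, CSF1, CCL2, IER3, C3, CCL5 and LIF had none. The NF-kB-type (kB) motif GGAATTTCC, searched on both strands, was in 8 of the 38 windows, of 8 different genes, and in 0.461% of all 35116 windows. It was in a window of each of the 6 CXC chemokine genes of chromosome 4, and in those of NFKBIZ and, on the opposite strand, ICAM1. The 34 genes were chosen as NF-kB targets, so a larger share of windows with a kB motif than over all windows is not an independent result. The stretches below are shown because the 6 chemokines had some of the widest spreads between libraries. Those of CXCL1, CXCL2 and CXCL3 are near copies of each other, as are those of CXCL5 and CXCL6, so their matches are not separate cases. Capitals mark the motif on the strand of the gene, with 40 bases on each side where the window allowed. CXCL8 (chr4:73740438-73740526, plus strand, motif 91 bases before the start), CXCL6 (chr4:73836549-73836637, plus strand, 89 bases), CXCL1 (chr4:73869275-73869363, plus strand, 78 bases), CXCL5 (chr4:73998719-73998807, minus strand, 90 bases), CXCL3 (chr4:74038719-74038807, minus strand, 78 bases), CXCL2 (chr4:74099224-74099312, minus strand, 77 bases) and NFKBIZ (chr3:101827740-101827816, plus strand, 222 bases) read as follows, 5′ to 3′.
CXCL8: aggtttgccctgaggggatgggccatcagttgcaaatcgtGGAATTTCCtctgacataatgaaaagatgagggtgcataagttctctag
CXCL6: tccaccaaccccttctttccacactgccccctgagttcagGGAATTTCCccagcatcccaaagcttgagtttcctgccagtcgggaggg
CXCL1: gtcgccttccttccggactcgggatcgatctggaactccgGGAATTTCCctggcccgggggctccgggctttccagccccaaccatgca
CXCL5: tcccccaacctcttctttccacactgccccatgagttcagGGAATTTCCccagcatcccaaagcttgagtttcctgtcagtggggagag
CXCL3: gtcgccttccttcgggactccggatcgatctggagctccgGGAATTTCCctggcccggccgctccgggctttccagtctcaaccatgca
CXCL2: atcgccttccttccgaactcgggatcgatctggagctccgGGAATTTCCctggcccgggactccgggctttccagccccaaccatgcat
NFKBIZ: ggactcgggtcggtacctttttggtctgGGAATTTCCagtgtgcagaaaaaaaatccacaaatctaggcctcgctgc

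A looser kB-type motif, GGNNNTTCC on either strand, which includes the first motif, was in 19 of the 38 windows, of 17 genes, and in 20.1% of all windows. It was found for IL6 (chr7:22727088-22727176, plus strand, 72 bases before the start) and for BIRC3 (chr11:102317245-102317333, plus strand, 199 bases before the start, matched on the opposite strand). BIRC3 is shown because it was the gene called between groups without a block, and IL6 as the best known cytokine of the set.
IL6: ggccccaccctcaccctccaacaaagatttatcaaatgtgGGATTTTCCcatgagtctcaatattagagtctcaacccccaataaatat
BIRC3: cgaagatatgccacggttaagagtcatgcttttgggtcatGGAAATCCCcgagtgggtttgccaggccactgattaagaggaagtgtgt
The AP-1-type motif TGANTCA was in 6 of the 38 windows, those of CXCL8, CCL7, IL1A, IL11 and TNFAIP6, and in 7.71% of all windows. The CArG box, the motif bound by SRF, was in 0 of the 38 windows and in 1.29% of all windows. A match describes these letters and is not evidence of a bound site.

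**Figure D1:**
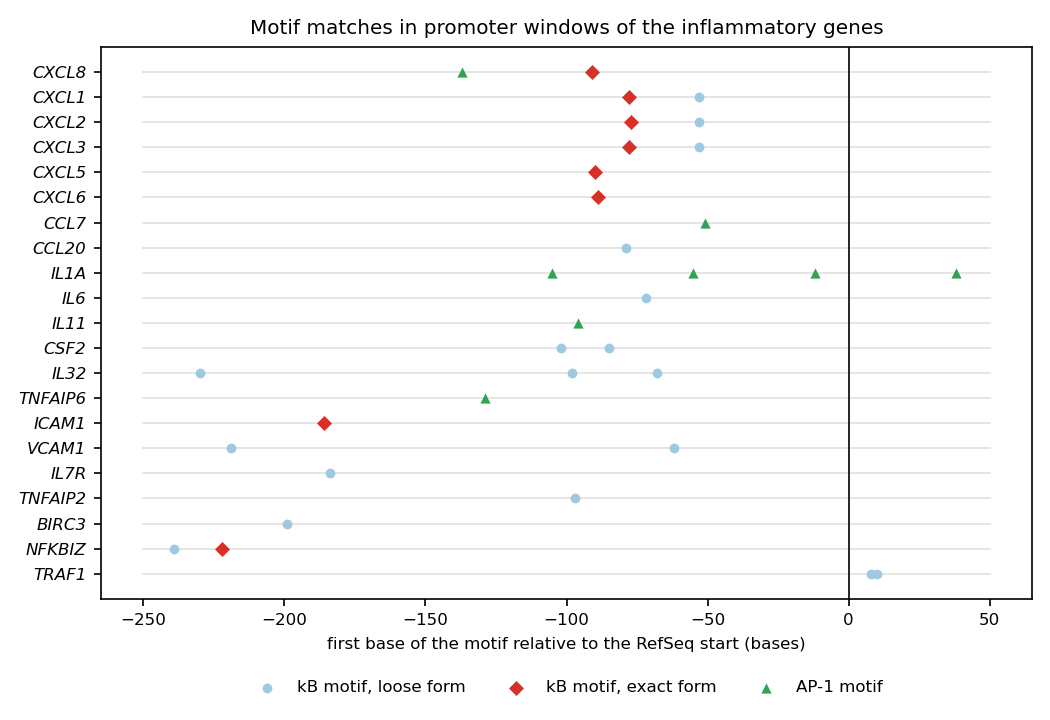
Position of motif matches (horizontal axis, bases relative to the RefSeq start) in the promoter windows of the inflammatory genes that held at least 1 match; grey lines span the 300-base window, and a gene with more than 1 window has them drawn on 1 line. The exact kB motif lies 77 to 91 bases before the start in the 6 CXC chemokine genes, and loose matches at the same place as an exact one are hidden behind it.

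Libraries held 19362319 to 29806771 counts. CPM, the usual scaling for depth, is here a gene's count over the library's total count. The genes joined in the constructs check the labels: RELA had a mean of 93.3 ± 3.76 CPM (SD, n = 3) in pMSCV against 256 ± 19.2 CPM in SRF-RELA, ICA1L at 13.5 ± 1.06 and 136 ± 16.7 CPM in SRF-ICA1L, and PDGFRB at 425 ± 67.0 and 709 ± 205 CPM in SRF-PDGFRB. SRF was at 60.96 ± 3.56 CPM in pMSCV, 945 ± 236 CPM in SRF and 182 to 326 CPM as group means of the fusions. FOXO1 was not higher in the libraries labelled SRF-FOXO1 (9.79 ± 3.99 CPM against 12.6 ± 4.27 CPM in pMSCV), so SRF-FOXO1 below means the libraries with that label. All 8 mesenchymal stromal markers (THY1, NT5E, ENG, CD44, VIM, COL1A1, COL1A2, PDGFRB) were at 1 CPM or more in every library. Of 9 white blood cell markers, PTPRC, CD14, CD68, ITGAM, CD3E, MS4A1 and LYZ stayed under 1 CPM in all 18 libraries, and CD3E was at 0. In RNA from a whole culture, fewer cells making a transcript and less transcript per cell cannot be told apart.

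TPM is here abundance per joined length of all annotated exons of a gene, scaled to a fixed total. By the mean TPM over the 18 libraries, the most abundant of the 34 genes were CXCL1 at 350.4 TPM, CCL2 at 318 TPM, CXCL8 at 313 TPM, IER3 at 247 TPM and SOD2 at 243 TPM. IL1B followed at 134 TPM and IL6 was at 22.1 TPM. The lowest were CCL5 at 3.14 TPM, IL7R at 2.55 TPM, TRAF1 at 2.00 TPM and IL33 at 0.860 TPM. Chemokines for neutrophils and monocytes and the mitochondrial superoxide dismutase SOD2 thus stood near the top, and the alarmin IL33 at the bottom. The order depends on the length used, which was 16493 bases for SOD2 and 1296 bases for CXCL1. Without a length, the median over the libraries was 845 CPM for SOD2 and 72.4 CPM for CXCL1.

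The 34 genes differed more between libraries of a group than most genes did. The median of their biological coefficients of variation in edgeR was 0.483, against 0.187 over all tested genes. In every group but SRF, a single library was the highest or the lowest for most of the 34 genes. pMSCV 2 was the lowest of the 3 pMSCV libraries for 30 of the 34 genes and pMSCV 3 the highest for 27, against 29.9% and 37.5% of all tested genes. SRF-ICA1L 3 was the lowest of its group for 31 genes, against 22.3% of all tested genes. SRF-FOXO1 1 was the highest of its group for 27 (44.6% of all), SRF-RELA 2 for 25 (26.7% of all) and SRF-PDGFRB 2 for 23 (26% of all), while SRF-RELA 1 was the lowest for 27 (33.1% of all). In SRF the highest library was number 1 for 13 genes, number 2 for 16 and number 3 for 5, and the lowest was likewise split. Number 2 was thus lowest for most of the genes in pMSCV and highest for most in SRF-PDGFRB and SRF-RELA. As the median over the 34 genes of the log2 deviation from each gene's mean, libraries ran from -1.10 in SRF-ICA1L 3 to 0.82 in SRF-RELA 2, while the median over all tested genes stayed within 0.02 of 0. The libraries numbered 2 also stood apart in immediate early genes, with FOS at 12.1 to 34.4 CPM against 381 to 1114 CPM in the other 12.

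**Figure D2:**
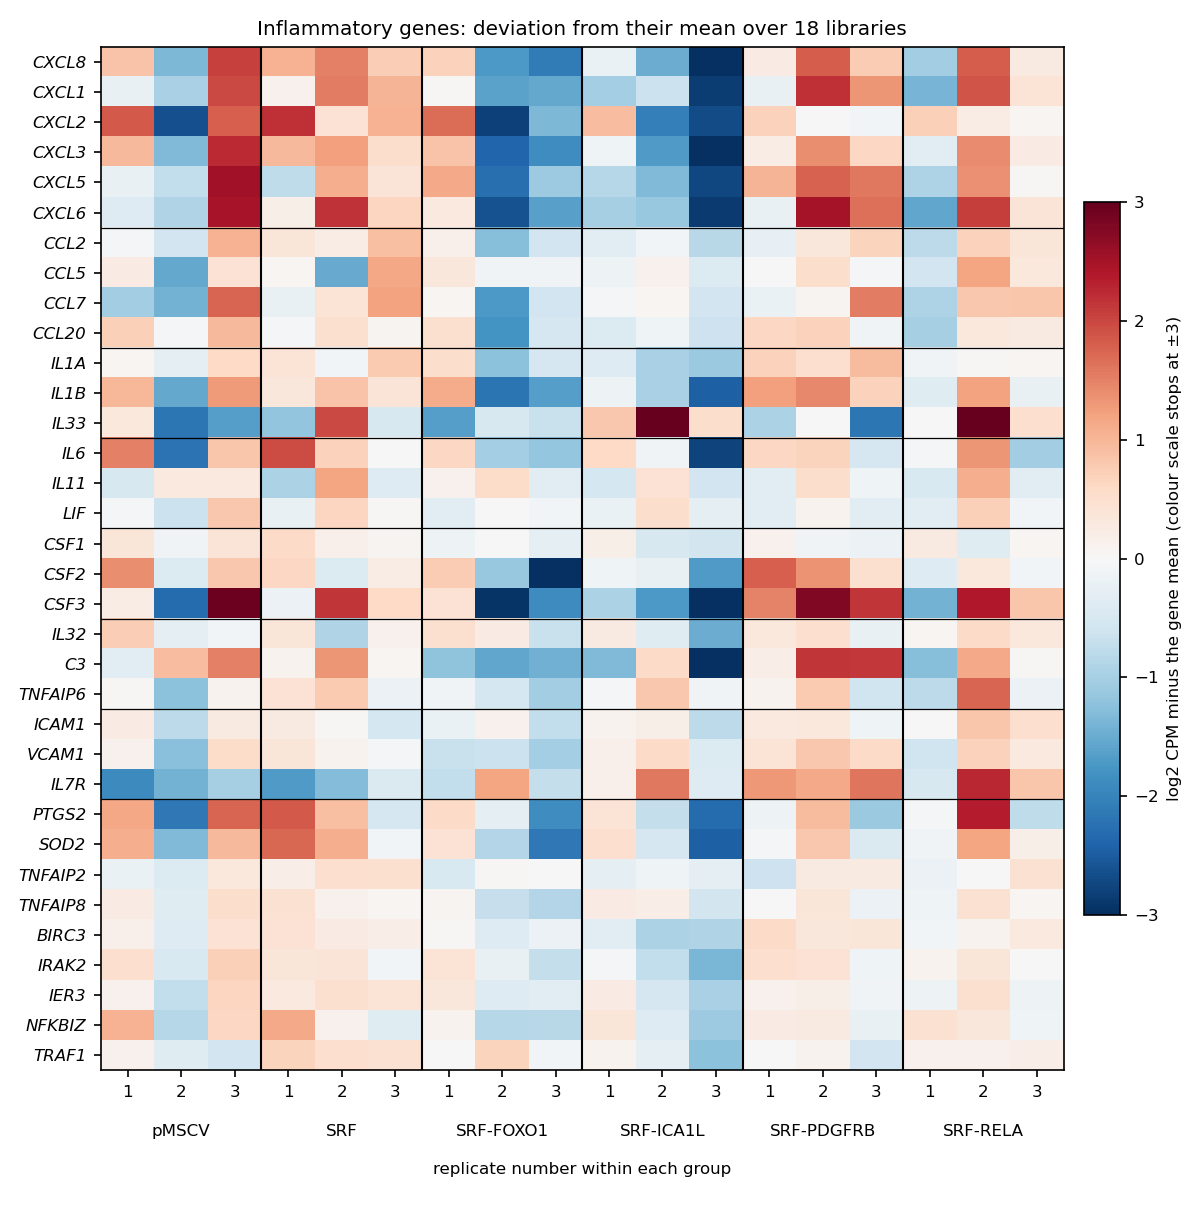
Each cell is a gene's log2 CPM in 1 library (TMM-scaled, prior count of 2) minus its mean over the 18 libraries, with colours stopping at 3 either way; genes are ordered by role and libraries by group and number. Columns are mostly blue in pMSCV 2, SRF-FOXO1 2, SRF-FOXO1 3, SRF-ICA1L 3 and SRF-RELA 1. They are mostly red in pMSCV 3, SRF 2, SRF-PDGFRB 2 and SRF-RELA 2.

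Each construct was compared with pMSCV and with SRF, and the fusions with each other, to ask whether any construct shifts the inflammatory genes. Calls were made where edgeR's quasi-likelihood test, after Benjamini-Hochberg adjustment across the tested genes, gave an adjusted p under 0.05. Of the 34 genes, 1 was called in each of 2 of the 15 pairs of groups. BIRC3 was lower in SRF-ICA1L than in SRF, where 0.782% of all tested genes were called (0.146% as lower), and lower in SRF-ICA1L than in SRF-PDGFRB, where 0.82% were called (0.253% as lower). In the other 13 pairs edgeR called 0 of the 34. The share of all tested genes called against pMSCV was 0.183% in SRF-RELA, 0.0324% in SRF-PDGFRB, 0.469% in SRF-ICA1L, 0.928% in SRF-FOXO1 and 0.027% in SRF. Against SRF it was 0.388% in SRF-RELA, 0.146% in SRF-PDGFRB and 1.36% in SRF-FOXO1. It was 0.00539% in SRF-RELA against SRF-FOXO1, 0.0108% against SRF-ICA1L and 0.162% against SRF-PDGFRB. It was 0.027% in SRF-FOXO1 against SRF-ICA1L and 0.717% against SRF-PDGFRB.

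At an unadjusted p under 0.05, edgeR's test against pMSCV gave 2 of the 34 genes in SRF-RELA (3.83% of all tested genes), 1 in SRF-PDGFRB (2.1%), 13 in SRF-ICA1L (10.8%), 3 in SRF-FOXO1 (15.1%) and 1 in SRF (5.38%). Against SRF it gave 1 in SRF-RELA (9.54%), 2 in SRF-PDGFRB (12%), 13 in SRF-ICA1L (11.8%) and 5 in SRF-FOXO1 (14.4%). In SRF-RELA it gave 3 against SRF-FOXO1 (10.4%), 6 against SRF-ICA1L (3.06%) and 1 against SRF-PDGFRB (3.87%). SRF-ICA1L held most of these genes, and most of them lay lower there: 11 were lower against pMSCV (4.07% of all tested genes), 12 against SRF (5.06%) and 11 against SRF-PDGFRB (5.02%), where 12 passed in either direction (11.7%). In SRF-FOXO1 it gave 3 against SRF-ICA1L (6.07%) and 8 against SRF-PDGFRB (14.8%). The 34 genes share libraries, so these counts are not counts of independent events.

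DESeq2, at an adjusted p under 0.05, called BIRC3 in SRF-ICA1L against pMSCV (1.55% of the genes with an adjusted p were called). It called IL7R in SRF-PDGFRB (0.0766%) and SRF-RELA (0.504%) against pMSCV and in SRF-PDGFRB (1.23%) and SRF-RELA (0.79%) against SRF. C3 and VCAM1 were called by it in SRF-FOXO1 against SRF-PDGFRB (2.02%), 2 genes (BIRC3 and IL1A) in SRF-ICA1L against SRF (1.99%) and 3 (BIRC3, IL1A and CSF3) in SRF-ICA1L against SRF-PDGFRB (2.24%). It called 0 of the 34 in the other 7 pairs, which were SRF (0.133%) and SRF-FOXO1 (2.33%) against pMSCV, SRF-FOXO1 against SRF (3.45%) and against SRF-ICA1L (0.37%), and SRF-RELA against SRF-FOXO1 (0.0757%), SRF-ICA1L (0.00987%) and SRF-PDGFRB (0.526%).

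Most of the 34 genes lay lower in the libraries labelled SRF-FOXO1 and in SRF-ICA1L, without passing the test one by one. Against pMSCV, 30 of 34 had a log2 fold change below 0 in SRF-FOXO1 and 30 in SRF-ICA1L, with a median of -0.76 in both, against a median over all tested genes of 0.01 and -0.01. Against SRF, 32 of 34 were below 0 in each, with medians of -0.67 in SRF-FOXO1 and -0.82 in SRF-ICA1L, against -0.01 and -0.02 over all tested genes. These comparisons share their control libraries, so they are not independent of each other. The other constructs stayed near pMSCV: the median was 0.09 in SRF, 0.07 in SRF-PDGFRB and -0.05 in SRF-RELA. In SRF-RELA, the fusion named for an NF-kB subunit, 13 of the 34 genes were above 0 against pMSCV and 21 below. Which part of RELA this fusion holds is not stated in the labels.

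The size of these medians rested in part on single libraries. Without pMSCV replicate 3, SRF-FOXO1 against pMSCV had a median of -0.22 with 25 genes below 0, and without SRF-FOXO1 replicate 1 it was -1.11. Without SRF-ICA1L replicate 3, the SRF-ICA1L medians were -0.49 against pMSCV, -0.59 against SRF and -0.24 against SRF-PDGFRB. Near pMSCV the direction itself turned. For SRF-RELA the median was 0.36 without pMSCV replicate 3 and -0.38 without pMSCV replicate 2, and for SRF it was 0.60 and -0.25. For SRF-PDGFRB it was 0.45 and -0.20. Without the 6 libraries numbered 2, an alternative chosen after seeing the data, the medians against pMSCV were -0.66 in SRF-RELA, -0.39 in SRF-PDGFRB, -1.12 in SRF-ICA1L, -0.81 in SRF-FOXO1 and -0.28 in SRF. Summed levels of 2 marker lists for other cell types had higher means in the 2 lower groups and SRF-RELA than in pMSCV, mainly through TEK and KRT18: the summed level of 5 endothelial markers was 73.6 to 94.1 CPM in pMSCV, 127 to 351 CPM in SRF-FOXO1, 131 to 393 CPM in SRF-ICA1L, 119.6 to 327 CPM in SRF-RELA, 89.6 to 115 CPM in SRF and 78.3 to 141 CPM in SRF-PDGFRB. The 5 epithelial markers summed to 50.9 to 91.2 CPM in pMSCV, 93.5 to 226 CPM in SRF-FOXO1, 98.7 to 232 CPM in SRF-ICA1L, 75.2 to 153 CPM in SRF-RELA, 51.2 to 144 CPM in SRF and 52.2 to 107 CPM in SRF-PDGFRB, with EPCAM and KRT19 under 1 CPM throughout. In the endothelial list TEK, a receptor tyrosine kinase, ran from 60.4 to 381 CPM over the 18 libraries while CDH5, VWF and KDR reached 1.96, 1.46 and 3.26 CPM at most, and PECAM1 had lower means in SRF-FOXO1 (8.14 CPM) and SRF-ICA1L (8.86 CPM) than in pMSCV (13.1 CPM). In the epithelial list KRT18, a keratin, ran from 24.3 to 191 CPM. Their part in the result was not tested.

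**Figure D3:**
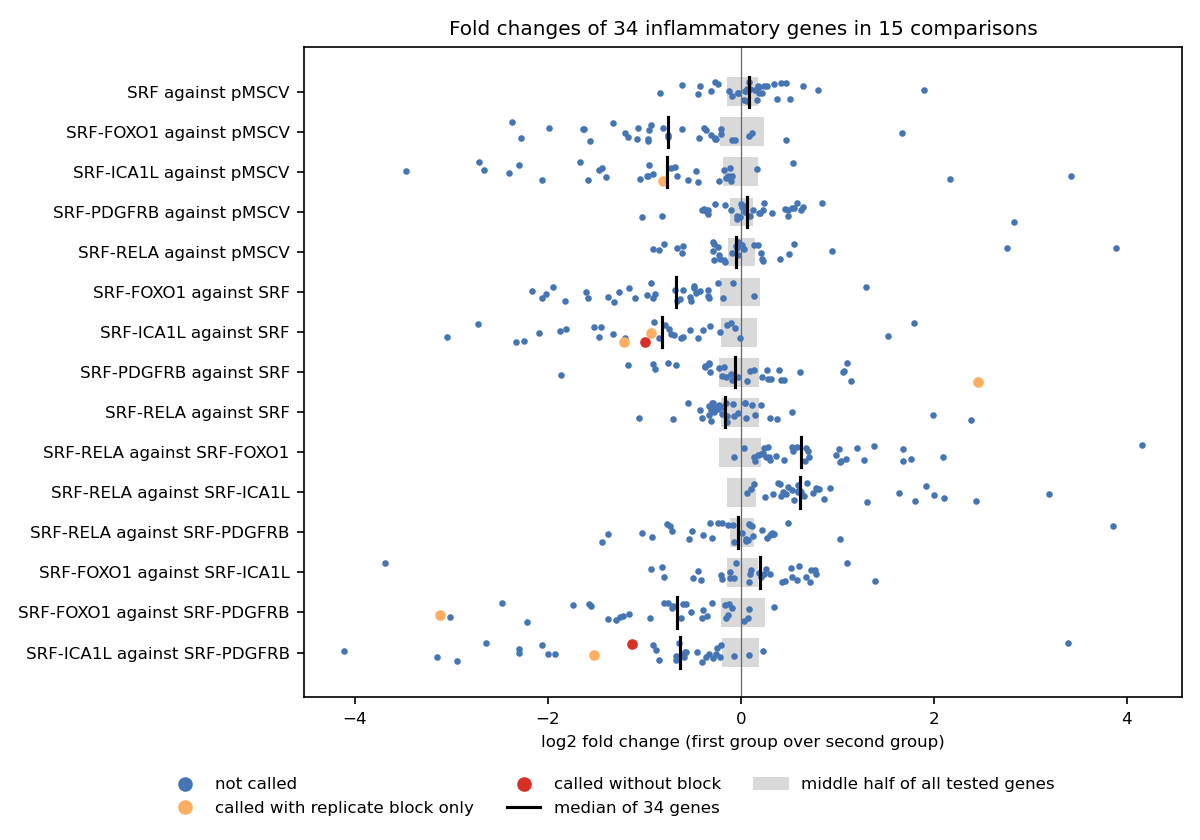
Each point is 1 of the 34 genes, with its log2 fold change (horizontal axis, edgeR fit without a block, first group over second) in each of the 15 pairs of groups; black bars are the medians of the 34 genes and grey boxes span the middle 50% of all tested genes. The medians lie at -0.76 for SRF-FOXO1 and SRF-ICA1L against pMSCV, outside the grey boxes; BIRC3 in SRF-ICA1L holds both red points, and orange points were called with the replicate block alone.

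The 6 CXC chemokine genes draw neutrophils through the receptors CXCR1 and CXCR2 and lie together on chromosome 4 (GRCh38, from 73740506 at the start of CXCL8 to 74099293 at the end of CXCL2 in GENCODE 29). CXCL8 was at 213, 47.2 and 508 CPM in pMSCV replicates 1, 2 and 3, and at 237, 337 and 196 CPM in SRF. It was at 192, 32.1 and 26.9 CPM in SRF-FOXO1 and at 98.5, 37.7 and 7.85 CPM in SRF-ICA1L. It was at 141, 416 and 210.4 CPM in SRF-PDGFRB and at 56.5, 394 and 142 CPM in SRF-RELA. All 3 SRF-ICA1L libraries lay below the 3 SRF and the 3 SRF-PDGFRB libraries, but they overlapped pMSCV, SRF-FOXO1 and SRF-RELA. The highest library, pMSCV 3, was 64.7-fold above the lowest, SRF-ICA1L 3. The log2 fold change of CXCL8 in SRF-ICA1L was -2.30 (SE 1.03) against pMSCV and -2.34 (SE 1.03) against SRF, neither of which was called (edgeR adjusted p 0.439 and 0.395).

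CXCL1 had the same shape. Its means were 138 ± 148 CPM (SD, n = 3) in pMSCV, 153 ± 70.7 CPM in SRF and 133 ± 123 CPM in SRF-RELA. The highest mean was 204 ± 140.1 CPM, in SRF-PDGFRB, and the lowest were 42.2 ± 31.4 CPM, in SRF-FOXO1, and 29.8 ± 17.5 CPM, in SRF-ICA1L. CXCL3, CXCL5 and CXCL6 ran from 2.80, 3.21 and 3.05 CPM, all in SRF-ICA1L 3, to 114, 133 and 136 CPM, all in pMSCV 3. CXCL5 in SRF-ICA1L was below every pMSCV library, and its fitted log2 difference of -2.71 (SE 0.99) had an edgeR adjusted p of 0.319. CXCL2 differed in that number 1 was highest in 5 of the 6 groups: it was at 35.1, 1.55 and 35.6 CPM in pMSCV and at 44.2, 13.5 and 20.3 CPM in SRF. Against SRF, 5 of the 6 chemokines (CXCL8, CXCL1, CXCL3, CXCL5 and CXCL6) did not overlap and were lower in SRF-ICA1L. In all, 15 of the 34 genes were lower without overlap in that pair, against 9.77% of all tested genes, and 15 in SRF-ICA1L against SRF-PDGFRB, against 18.2%. Transcripts of CXCL2 and CXCL3 share a run of 178 identical bases, those of CXCL1 and CXCL2 77, those of CXCL1 and CXCL3 55 and those of CXCL5 and CXCL6 45. How shared reads were counted is not given in the sources used here, so the split of counts within these pairs is uncertain.

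**Figure D4:**
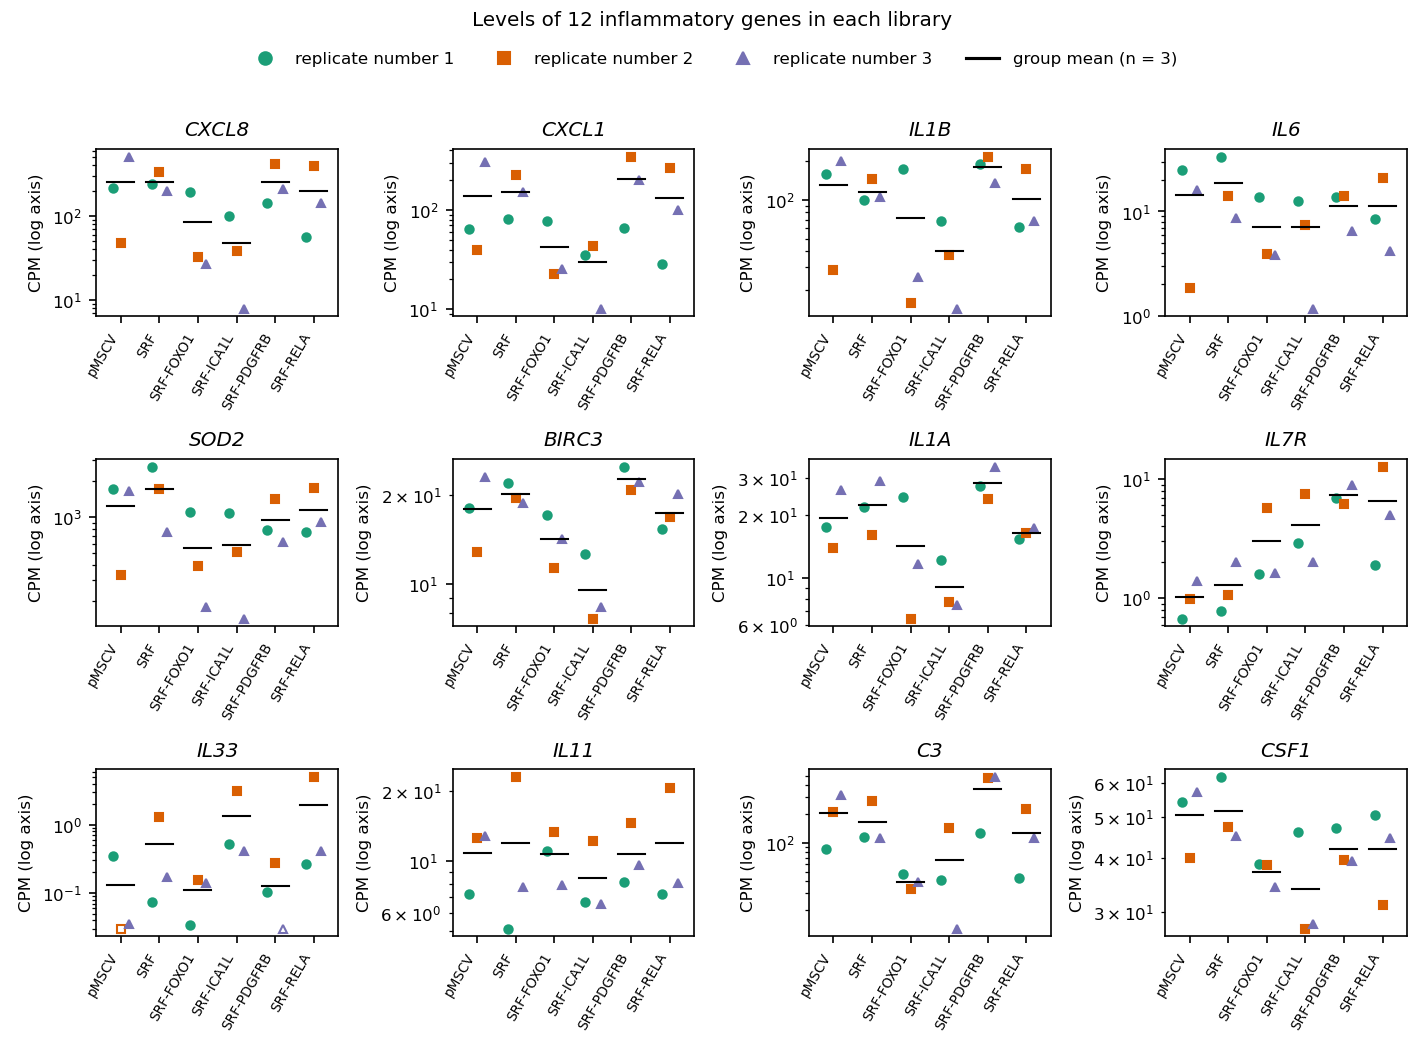
Level in each library (CPM, log axis, a separate range per gene) of 12 of the inflammatory genes, by group (horizontal axis) and replicate number (marker shape), with the group mean of 3 libraries as a black bar; open markers at the bottom of the IL33 plot are libraries with 0 counts. BIRC3 in SRF-ICA1L sits at 7.64 to 12.6 CPM, below SRF and SRF-PDGFRB, while CXCL8 in pMSCV spreads from 47.2 to 508 CPM.

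The CC chemokines draw monocytes and lymphocytes. CCL2, the monocyte chemokine, had means of 190.2 ± 116 CPM in pMSCV, 215 ± 57.5 CPM in SRF, 170.1 ± 74.3 CPM in SRF-RELA, 189 ± 59.6 CPM in SRF-PDGFRB, 109 ± 23.8 CPM in SRF-ICA1L and 108 ± 56.1 CPM in SRF-FOXO1. Both SRF-FOXO1 and SRF-ICA1L lay below SRF without overlap, at log2 fold changes of -0.97 (SE 0.46, edgeR adjusted p 0.351) and -0.90 (SE 0.46, edgeR adjusted p 0.470). CCL7 ran from 2.90 to 37.7 CPM, CCL5 from 0.344 to 2.60 CPM and CCL20 from 0.274 to 2.60 CPM. None of the 4 was called in any pair by edgeR, with or without the replicate block, or by DESeq2.

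Among interleukin-1 family cytokines, IL1A, the cell-bound form of interleukin-1, was at 17.5, 13.9 and 26.3 CPM in pMSCV, at 21.7, 16.0 and 28.9 CPM in SRF and at 24.4, 6.42 and 11.6 CPM in SRF-FOXO1. It was at 12.2, 7.68 and 7.43 CPM in SRF-ICA1L, at 27.3, 23.9 and 33.8 CPM in SRF-PDGFRB and at 15.3, 16.3 and 17.3 CPM in SRF-RELA. SRF-ICA1L lay below the lowest library of every other group except SRF-FOXO1. The log2 fold change in SRF-ICA1L was -1.21 (SE 0.36) against SRF and -1.52 (SE 0.36) against SRF-PDGFRB, neither called (edgeR adjusted p 0.166 and 0.0721). With the replicate block both were called, at -1.19 (edgeR adjusted p 0.0404) and -1.53 (edgeR adjusted p 0.0115), as by DESeq2 (adjusted p 0.0394 and 0.00236). IL1B, the secreted form, ran from 14.2 to 218 CPM and was not called in any pair.

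IL33, an alarmin released by damaged cells, was close to the limit of detection. Its counts were 10, 0 and 1 in pMSCV, 2, 34 and 5 in SRF and 1, 4 and 3 in SRF-FOXO1. They were 6, 145 and 10 in SRF-RELA and 3, 8 and 0 in SRF-PDGFRB, while SRF-ICA1L had 13, 89 and 10. A count of 0 allows a level of up to 0.129 CPM in pMSCV 2 and up to 0.155 CPM in SRF-PDGFRB 3, as 3 counts of the library's total and for counting error only. Number 2 was the highest library in 5 of the 6 groups. Its fitted fold changes depend on the prior count and are not given for pairs of groups, where edgeR called none.

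Of the interleukin-6 family, IL6 ran from 1.17 CPM in SRF-ICA1L 3 to 33.6 CPM in SRF 1, with means of 14.4 ± 11.8 CPM in pMSCV, 18.8 ± 13.1 CPM in SRF, 11.2 ± 8.77 CPM in SRF-RELA, 11.4 ± 4.26 CPM in SRF-PDGFRB, 7.08 ± 5.78 CPM in SRF-ICA1L and 7.13 ± 5.68 CPM in SRF-FOXO1. The groups overlapped widely, and IL6 was called in no pair. LIF, which acts through the same signalling chain, was steadier at 19.7 to 54.5 CPM, and IL11 is described with the replicate numbers. The colony-stimulating factors feed myeloid cells. CSF3, the granulocyte factor, spread most, from 0.0835 CPM (2 counts) in SRF-ICA1L 3 to 30.9 CPM (892 counts) in pMSCV 3. SRF-ICA1L, with a mean of 0.984 ± 0.889 CPM, lay below SRF-PDGFRB, with 18.7 ± 7.96 CPM, without overlap. The log2 fold change was -4.11 (SE 1.37), called by DESeq2 (adjusted p 0.0479) and not by edgeR (adjusted p 0.222). CSF2 ran from 0.0463 to 4.18 CPM and CSF1, the macrophage factor, from 27.4 to 62.0 CPM, and neither was called in any pair.

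C3 encodes the central complement protein. It was at 86.8, 209 and 319 CPM in pMSCV, at 115, 272 and 112 CPM in SRF and at 47.3, 33.2 and 39.2 CPM in SRF-FOXO1. It was at 41.5, 145 and 12.9 CPM in SRF-ICA1L, at 127, 479.7 and 491 CPM in SRF-PDGFRB and at 43.7, 228 and 112 CPM in SRF-RELA. SRF-FOXO1 lay below every library of pMSCV, SRF and SRF-PDGFRB. The log2 differences from pMSCV and SRF, -2.28 (SE 0.83) and -2.01 (SE 0.82), were not called (edgeR adjusted p 0.217 and 0.271). Against SRF-PDGFRB it was -3.12 (SE 0.86), not called without the block (edgeR adjusted p 0.122), called with it (-2.81, edgeR adjusted p 0.0429) and called by DESeq2 (adjusted p 0.00726). IL32 ran from 5.80 to 28.1 CPM and TNFAIP6, a hyaluronan-binding protein, from 5.16 to 38.6 CPM, with no call in any pair.

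ICAM1 and VCAM1 bind leukocyte integrins. VCAM1 was at 93.5, 37.1 and 129.9 CPM in pMSCV, at 54.2, 49.8 and 41.5 CPM in SRF-FOXO1 and at 117, 152 and 133 CPM in SRF-PDGFRB. SRF-FOXO1 lay below SRF-PDGFRB, with a log2 fold change of -1.38 (SE 0.38) that was not called by edgeR without the block (adjusted p 0.123) or with it (adjusted p 0.0813) and was called by DESeq2 (adjusted p 0.0138). ICAM1 ran from 23.5 to 70.6 CPM and was highest in SRF-RELA 2, with a mean of 56.9 ± 14.8 CPM in SRF-RELA against 42.0 ± 15.2 CPM in pMSCV, a log2 fold change of 0.50 (SE 0.33) that was not called (edgeR adjusted p 1.00).

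IL7R, the receptor chain for interleukin-7, lay the other way. It was at 0.673, 0.989 and 1.39 CPM in pMSCV, at 0.779, 1.07 and 2.01 CPM in SRF and at 1.61, 5.75 and 1.62 CPM in SRF-FOXO1. It was at 2.93, 7.50 and 2.00 CPM in SRF-ICA1L, at 6.93, 6.14 and 8.88 CPM in SRF-PDGFRB and at 1.91, 12.7 and 4.97 CPM in SRF-RELA. Every library of the 4 fusions was above every pMSCV library. Relative to pMSCV, the log2 fold change was 2.84 (SE 0.74) in SRF-PDGFRB and 2.76 (SE 0.74) in SRF-RELA, not called by edgeR (adjusted p 0.807 and 0.282, with the block 0.0692 and 0.0661) and called by DESeq2 (adjusted p 0.0205 and 0.00650). Against SRF it was 2.46 (SE 0.72, edgeR adjusted p 0.210) in SRF-PDGFRB, and it was called with the replicate block (2.55, edgeR adjusted p 0.0331). White blood cell markers, among which IL7R is not listed although lymphocytes express it, summed to 7.21 to 15.6 CPM in SRF-PDGFRB and to 2.02 to 5.31 CPM in the other 15 libraries, with PTPRC at 0.277 CPM at most and CD3E at 0. The higher sum came from CD74 (10.3 ± 3.82 CPM in SRF-PDGFRB against 2.48 ± 1.01 CPM in pMSCV) and HLA-DRA (1.59 ± 0.915 CPM against 0.0261 ± 0.0229 CPM), genes of the MHC class II pathway. Of the 9 markers, CD3E alone was at 0 in all 3 SRF-PDGFRB libraries, and their part in the result was not tested.

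BIRC3 (chr11:102317450-102339403 in GENCODE 29, GRCh38) encodes an inhibitor of apoptosis that binds the tumour necrosis factor receptor complex. It was at 18.02, 12.8 and 23.0 CPM in pMSCV, at 21.9, 19.5 and 18.8 CPM in SRF and at 17.0, 11.3 and 14.2 CPM in SRF-FOXO1. It was at 12.6, 7.64 and 8.39 CPM in SRF-ICA1L, at 24.8, 20.7 and 22.1 CPM in SRF-PDGFRB and at 15.3, 16.8 and 20.1 CPM in SRF-RELA. SRF-ICA1L was the lowest group and overlapped only SRF-FOXO1. BIRC3 fell by 0.99 on the log2 scale (SE 0.21, edgeR adjusted p 0.0326) in SRF-ICA1L relative to SRF, and by 1.13 (SE 0.21, edgeR adjusted p 0.0154) relative to SRF-PDGFRB. It was lower at 3 of 3 numbers each time, which the lack of overlap already implies. With the replicate block the adjusted p was 0.00351 and 0.00162. Both calls were lost without the 6 libraries numbered 2 (-0.92, edgeR adjusted p 0.271, and -1.06, edgeR adjusted p 0.131) and in fits of the 2 compared groups alone (edgeR adjusted p 0.152 and 0.0631). With 1 library left out, edgeR's adjusted p against SRF was under 0.05 in 1 of 6 cases (0.0139 without SRF-ICA1L replicate 1, up to 0.179 without SRF-ICA1L replicate 2), and against SRF-PDGFRB in 2 of 6 (0.00780 without SRF-ICA1L replicate 1, up to 0.101 without SRF-ICA1L replicate 2). The log2 difference from pMSCV, -0.80 (SE 0.21), was not called without the block (edgeR adjusted p 0.114) and was called with it (edgeR adjusted p 0.0160).

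TRAF1, an adaptor of the same receptor complex, was at 3.50, 2.54 and 2.22 CPM in pMSCV, at 5.08, 4.59 and 4.44 CPM in SRF and at 3.33, 2.36 and 1.29 CPM in SRF-ICA1L. SRF-ICA1L lay below SRF, with a log2 fold change of -0.93 (SE 0.31) that was not called without the block (edgeR adjusted p 0.205) and was called with it (-0.98, edgeR adjusted p 0.0361). SRF-PDGFRB (2.22 to 3.50 CPM) and SRF-RELA (3.37 to 3.72 CPM) also lay below SRF without overlap, so this was not particular to SRF-ICA1L. SRF-FOXO1 (2.96 to 4.62 CPM) overlapped SRF. SRF itself lay above pMSCV without overlap for 1 of the 34 genes, TRAF1 (4.01% of all tested genes were higher without overlap), with a log2 fold change of 0.80 (SE 0.30) that was not called (edgeR adjusted p 0.900). With the replicate block, SRF-ICA1L against SRF had 3 called genes (BIRC3, IL1A and TRAF1; 4.73% of all tested genes), SRF-ICA1L against SRF-PDGFRB 2 (BIRC3 and IL1A; 4.76%), SRF-ICA1L against pMSCV 1 (BIRC3; 4.66%), SRF-FOXO1 against SRF-PDGFRB 1 (C3; 4.35%) and SRF-PDGFRB against SRF 1 (IL7R; 2.34%).

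The other intracellular products were called in no pair. SOD2, which detoxifies superoxide in mitochondria, was at 1713, 330.4 and 1631 CPM in pMSCV and at 2622, 1718 and 758 CPM in SRF, and its lowest library was SRF-ICA1L 3 at 144 CPM. PTGS2, the inducible cyclooxygenase, ran from 4.67 CPM in SRF-ICA1L 3 to 119 CPM in SRF-RELA 2. IRAK2, a kinase of the interleukin-1 receptor pathway, ran from 8.26 to 37.4 CPM and IER3, a stress-inducible survival gene, from 41.6 to 136 CPM. SRF-ICA1L lay below SRF without overlap for IRAK2 (log2 fold change -0.85, SE 0.35, edgeR adjusted p 0.346) and IER3 (-0.72, SE 0.33, edgeR adjusted p 0.413). TNFAIP8 stayed between 19.2 and 53.6 CPM.

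Over the 6 groups at once, edgeR's F test called 0 of the 34 genes (5 at an unadjusted p under 0.05, against 1.67% of all tested genes called and 13% at that unadjusted p). The smallest adjusted p was 0.0570, for BIRC3. With the replicate block BIRC3 (edgeR adjusted p 0.00633), IL7R (0.0163), IL33 (0.0297) and IL1A (0.0446) were called, against 8.77% of all tested genes, and DESeq2 called 3 (BIRC3, IL1A and IL7R; 5.05%), with no adjusted p for IL33.

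The libraries were also compared by replicate number, in a model with group and number. What a number marks is not stated in the labels. edgeR called 6 of the 34 genes for a difference among the 3 numbers (IL11, IL33, NFKBIZ, TNFAIP2, CSF1 and CXCL2), against 24.6% of all tested genes, so the share among the 34 was close to that of the table. Without 1 library the count ran from 3 to 12, the highest without pMSCV replicate 2. IL11, a cytokine of stromal cells, was at 12.6, 23.1, 20.5, 14.6, 12.3 and 13.3 CPM in the libraries numbered 2 of pMSCV, SRF, SRF-RELA, SRF-PDGFRB, SRF-ICA1L and SRF-FOXO1. In the same order it was at 7.22, 5.12, 7.24, 8.15, 6.69 and 11.1 CPM in number 1 and at 12.8, 7.71, 8.02, 9.61, 6.51 and 7.91 CPM in number 3. Number 2 was the highest in 5 of the 6 groups, pMSCV being the exception. Number 2 was set against the mean of numbers 1 and 3 with earlier results of these data known, in which number 2 stood apart in immediate early genes. The adjusted p-values of that contrast therefore only describe these libraries. IL11 rose by 1.03 on the log2 scale (SE 0.17, edgeR adjusted p 0.00142) in number 2 relative to the mean of numbers 1 and 3. IL33 rose by 2.65 (SE 0.51, edgeR adjusted p 0.00433), from counts of 0 to 13 in numbers 1 and 3 and of 0 to 145 in number 2.

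Those 2 were the 2 of the 34 genes called for number 2 against the others, where 12.7% of all tested genes were called, and DESeq2 called CXCL2 and IL1A besides (14.2%). NFKBIZ, a nuclear cofactor of NF-kB, was at 87.5 to 175 CPM in number 1 (median 104), at 40.3 to 97.3 CPM in number 2 (median 72.2) and at 36.8 to 129 CPM in number 3 (median 67.2), with an edgeR adjusted p among numbers of 0.0267. Number 1 was highest in 5 of 6 groups for NFKBIZ, and numbers 2 and 3 overlapped. CXCL2 had medians of 24.7, 6.02 and 9.92 CPM in numbers 1, 2 and 3 (edgeR adjusted p 0.0484), CSF1 of 48.8, 39.1 and 42.0 CPM (edgeR adjusted p 0.0333) and TNFAIP2 of 100.1, 113 and 153 CPM (edgeR adjusted p 0.0298). Of 16 stress and immediate early genes, 15 were called among the numbers, and EGR1 was at 63.7 to 224 CPM in number 2 against 392 to 994 CPM elsewhere. The part of these genes in the differences among the numbers was not tested.

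The pathway around the set was read from further lists. Of the 5 NF-kB subunit genes, RELA was called, in each of the 5 pairs with SRF-RELA, where it rose by 1.46 to 1.55 on the log2 scale, and NFKB1, NFKB2, RELB and REL in none. RELA was higher against pMSCV by 1.51 (SE 0.08, edgeR adjusted p 5.78e-08). Because RELA is joined in that construct, reads of the fusion may count to the gene, so this rise is a label check. It cannot tell whether the cells' own RELA differed. In SRF-RELA against pMSCV edgeR called 0 of the 34 genes (2 at an unadjusted p under 0.05, and 1 by DESeq2). The 9 inhibitors and feedback genes, such as NFKBIA and TNFAIP3, had 0 calls in any pair of groups by edgeR with or without the block. In a pair, 0 to 2 of them had an unadjusted p under 0.05. Among the 3 numbers, where 24.6% of all tested genes were called, 1 of the 9 was called. It was NFKBIB, an inhibitor of NF-kB (edgeR adjusted p 0.0400). Of 30 receptors and signal carriers upstream of NF-kB, TNFRSF1B, a receptor of tumour necrosis factor, was called in 1 pair, SRF-ICA1L against SRF-PDGFRB (2.59 ± 1.77 CPM against 11.5 ± 1.43 CPM, edgeR adjusted p 0.0359), where it fell by 2.05 on the log2 scale. With the replicate block TNFRSF1B was lower in 5 more pairs: SRF-FOXO1 and SRF-ICA1L against pMSCV, SRF-ICA1L against SRF, and SRF-RELA and SRF-FOXO1 against SRF-PDGFRB. The block also called TLR2 and TLR4 lower in SRF-FOXO1 against pMSCV and against SRF-PDGFRB, TLR2 lower in SRF-ICA1L against SRF, TLR2 and CD40 lower in SRF-ICA1L against SRF-PDGFRB, IL1RAP higher in SRF-ICA1L against pMSCV, and CD40 and TNFSF10 higher in SRF-PDGFRB against SRF. In SRF-FOXO1 against SRF it called TLR2, TLR4 and IL18, 1 of them higher and 2 lower. Among the 3 numbers 10 of the 30 were called, with TNFRSF1B, TLR2, TLR4 and IL1RAP among them. Of 21 receptors for the secreted products, 10 were tested and edgeR called 0 in a pair without the block, with 0 to 3 at an unadjusted p under 0.05. The block called ACKR3 lower in SRF-FOXO1 against pMSCV, and ACKR3 and C3AR1 lower in SRF-FOXO1 against SRF. Among the 3 numbers 5 of the 10 were called, with ACKR3 and C3AR1 among them. DESeq2 calls were not counted for these lists.

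Among 15 interferon response genes, the calls in pairs of groups without the block were in pairs with SRF-PDGFRB. CXCL9, which attracts T cells, was at 4.15 ± 3.56 CPM in SRF-PDGFRB and at 0 to 0.0580 CPM as group means elsewhere, and it was called against each of the other 5 groups (edgeR adjusted p 0.00816 to 0.0479). CXCL10, a ligand of the same receptor, was at 43.6 ± 15.2 CPM in SRF-PDGFRB, 0.0430 to 1.87 CPM in pMSCV, 1.38 ± 1.02 CPM in SRF and 1.37 ± 1.04 CPM in SRF-ICA1L. The difference of CXCL10 from SRF-ICA1L was called (edgeR adjusted p 0.0221), and those from pMSCV, SRF and SRF-FOXO1 were called with the replicate block (edgeR adjusted p 0.0225, 0.0116 and 0.0181) and not without it (0.0733, 0.0522 and 0.0577). The difference of CXCL10 between SRF-PDGFRB and SRF-RELA was not called by edgeR with or without the block. GBP1, an interferon-induced GTPase, rose by 0.88 on the log2 scale (SE 0.15, edgeR adjusted p 0.0290) in SRF-PDGFRB relative to SRF. With the block, IDO1 was called in 7 pairs: higher in SRF-PDGFRB than in each other group, and lower in SRF-FOXO1 and SRF-ICA1L than in pMSCV. IRF1 was called in 3, lower in SRF-RELA, SRF-FOXO1 and SRF-ICA1L than in SRF-PDGFRB. CXCL11 was called in 1, higher in SRF-RELA than in pMSCV, and over the 6 groups without the block (edgeR adjusted p 0.0395). Among the 3 numbers 4 of the 15 genes were called, against 24.6% of all tested genes. IRF1 and IDO1 were among them, and both were called lower in number 2.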

How the data were processed

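RNA was measured by stranded poly-A sequencing in 18 libraries. The deposited values are raw counts per Ensembl gene, which the authors made from trimmed reads; the submitters' processing notes name FastQC 0.11.8, Trimmomatic 0.39, HISAT2, featureCounts from Subread 2.0.3 and the build GRCh38. The annotation release, the strand setting and the handling of reads with several matches are not given in the sources used here. Of 61487 identifiers, 61369 took a symbol from a table of gene names, 105 from GENCODE 29 and 13 none. Counts were fitted with edgeR 4.0.16 (limma 3.58.1, R 4.3.3): filterByExpr with a minimum count of 10 left 18544 genes, with TMM scaling, robust quasi-likelihood F tests over all 18 libraries, 1 coefficient a group, and Benjamini-Hochberg adjustment with a threshold of 0.05. Fold changes with their SE come from this fit. DESeq2 1.42.0 was an alternative. The scripts were tested on simulated data. TPM used GENCODE 29 exon lengths.

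The replicate numbers, taken from the sample titles, were checked for pairing: deviations from the group means correlated over 0.1 in 44 of 45 same-number pairs (median r 0.375, lowest 0.0875, in SRF-FOXO1 against SRF) and had a median r of -0.18 in 90 pairs with different numbers. Deviations within a group sum to 0, so the negative value follows largely from the positive one and is not separate support for pairing. Because of the same-number correlations, a fit with the number as a block is given where it changes a call of the 34 genes. For the other NF-kB lists and the interferon list it is given where it changes a call in a pair of groups. Calls of those lists that it changed over the 6 groups at once are not given. No pair of libraries of a group agreed within sampling noise (lowest chi-square per degree of freedom 22.7).

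Any of the 34 genes could be named. Genes of the other NF-kB and interferon lists were named where they were called in a pair of groups, and stress genes by count. A white blood cell marker is not reported here and was left out of that list's sums. The 34 genes and all lists were chosen with earlier results of these data known, and the per-library values of several genes, among them CXCL8, CXCL1, SOD2, CCL2 and CSF3, were added after their values were seen. Alternatives covered scaling, filters, DESeq2, a fold threshold, the 2 compared groups alone, the block, each library left out and, chosen after seeing the data, the 6 libraries numbered 2 left out.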

Additional observations from a re-analysis of the deposited data

How the results depend on the processing

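IL33 and, in single libraries, CSF2 and CSF3 were limited by counts of a few reads. Signs were checked for the genes edgeR called in a pair of groups, with or without the block, or for number 2 against the others. In the comparison of the call, no log2 fold change of these genes changed sign under any alternative run. Calls by DESeq2 alone, and calls among the 3 numbers alone, were not checked in this way. The median over the 34 genes did change sign when libraries were left out: in SRF, SRF-PDGFRB and SRF-RELA against pMSCV, in SRF-PDGFRB and SRF-RELA against SRF, in SRF-RELA against SRF-PDGFRB, for number 2 against the others, and in SRF-FOXO1 against SRF-ICA1L (0.20 with all libraries, -0.55 without SRF-FOXO1 replicate 1). With the number as a replicate block, the count of the 34 genes called was 1 in SRF-ICA1L against pMSCV, 3 in SRF-ICA1L against SRF, 1 in SRF-PDGFRB against SRF, 1 in SRF-FOXO1 against SRF-PDGFRB, 2 in SRF-ICA1L against SRF-PDGFRB and 4 over the 6 groups, and the block changed no other call of the 34 genes. With DESeq2 it was 1 in each of SRF-ICA1L, SRF-PDGFRB and SRF-RELA against pMSCV, 1 in SRF-RELA, 1 in SRF-PDGFRB and 2 in SRF-ICA1L against SRF, 2 in SRF-FOXO1 and 3 in SRF-ICA1L against SRF-PDGFRB, 3 over the 6 groups and 4 for number 2 against the others. The 1 call in SRF-ICA1L against SRF became 0 where a log2 fold change of at least 1 either way was required, in a fit of the 2 compared groups alone and without the 6 libraries numbered 2, and that in SRF-ICA1L against SRF-PDGFRB became 0 without the 6 libraries numbered 2. In a fit of the 2 compared groups alone that pair still had 1 call, but of IL1A (edgeR adjusted p 0.0388) and no longer of BIRC3. Over the 6 groups, total-count scaling and no count filter each gave 1. With each library left out, the count ran from 0 to 1 in SRF-ICA1L against pMSCV, against SRF and against SRF-PDGFRB and in SRF-FOXO1 against SRF, from 0 to 2 in SRF-FOXO1 against SRF-PDGFRB and over the 6 groups, from 3 to 12 among the 3 numbers and from 2 to 5 for number 2 against the others, both highest without pMSCV replicate 2. It stayed at 0 in the other 10 pairs of groups. Where a count moved without its construction showing why, the cause was not tested. Total-count scaling moved the median log2 fold change of all tested genes by 0.11 in SRF-ICA1L against pMSCV and against SRF-PDGFRB.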
